A study of Homo sapiens with 12 samples.

Results

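The genes described here are 10 enzymes and receptors of prostaglandin metabolism, picked by symbol from a table of 26334 genes: the phospholipase gene PLA2G4A, the cyclooxygenase genes PTGS1 and PTGS2, the terminal synthase genes PTGES, PTGES2, PTGES3 and PTGDS, the breakdown gene HPGD, and the receptor genes PTGER2 and PTGER4. All 10 are in the table. They were listed with their levels in the 4 groups already known, so their levels, fitted differences and calls are given as a description, without p-values and in support of nothing. RNA was measured by poly(A) sequencing in HK-2, an immortalized human proximal tubule epithelial line, here carrying a PRCC-TFE3 fusion gene that doxycycline (Dox) switches on. The fusion joins PRCC to the transcription factor gene TFE3 and occurs in a renal carcinoma. Cells were kept for 48 h with Dox and MSC2530818 at 100 nM, with Dox alone, with MSC2530818 alone, or with DMSO vehicle alone. MSC2530818 inhibits CDK8 and CDK19, the kinases of the Mediator complex, and is called the inhibitor below. All 4 groups carry the inducible gene and were grown in medium with puromycin and blasticidin, and each had 3 libraries that the design text calls independent biological replicates. No group received Dox without the fusion gene, so effects of Dox and of the fusion cannot be told apart, and the sources used here do not say whether the line is 1 clone.

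Prostaglandin synthesis starts when a phospholipase frees arachidonic acid from membrane lipid. A cyclooxygenase turns it into prostaglandin H2, which terminal synthases convert into prostaglandin E2, D2 and other products. A transporter takes prostaglandins back into the cell, where the dehydrogenase encoded by HPGD inactivates them. In the kidney, prostaglandin E2 acts on salt and water handling and on blood flow.

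On the log2(FPKM + 1) scale, the widest ranges of group means were those of PTGDS (2.95) and PTGES (1.07), both terminal synthases. As a ratio of the highest to the lowest group mean, PTGDS spanned 11, while PTGES (2.43) stood below PLA2G4A (4.56), PTGER2 (4.4, with 2 of 3 inhibitor libraries listed at 0), PTGER4 (2.96) and PTGS1 (2.56), all genes with lower levels. PTGDS averaged 21.9 FPKM with Dox alone against 3.78 FPKM with vehicle, but 4.35 FPKM with Dox plus inhibitor against 2 FPKM with inhibitor alone. PTGES averaged 7.78 FPKM with Dox alone against 3.21 FPKM with vehicle, and was lower, not higher, with Dox in the presence of the inhibitor. HPGD was lower with Dox with or without inhibitor, and PTGS1 was lower with the inhibitor with or without Dox. Outside the 10 genes, SLCO2A1, which encodes the transporter for prostaglandin uptake, fell with Dox and rose with the inhibitor. FPKM counts fragments relative to transcript length and to the size of the library, so levels can be set side by side between genes.

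The stretches upstream of PTGDS and PTGES are shown because these genes had the widest ranges on the log2(FPKM + 1) scale. They come from RefSeq on GRCh38.p14, run 5′ to 3′ on the gene's strand, and end at the base before the annotated start. For PTGDS the stretch is chr9:136977254-136977503 on the plus strand, inside the longer GENCODE gene model, and for PTGES it is chr9:129753043-129753292 on the minus strand. Capitals mark a match to GCGNGGGCG, the motif of the EGR factors.
PTGDS: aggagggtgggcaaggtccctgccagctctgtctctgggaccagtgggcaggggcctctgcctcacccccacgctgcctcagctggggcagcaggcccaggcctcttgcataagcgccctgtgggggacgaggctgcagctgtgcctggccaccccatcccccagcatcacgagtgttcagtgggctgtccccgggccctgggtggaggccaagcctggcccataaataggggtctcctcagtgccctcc
PTGES: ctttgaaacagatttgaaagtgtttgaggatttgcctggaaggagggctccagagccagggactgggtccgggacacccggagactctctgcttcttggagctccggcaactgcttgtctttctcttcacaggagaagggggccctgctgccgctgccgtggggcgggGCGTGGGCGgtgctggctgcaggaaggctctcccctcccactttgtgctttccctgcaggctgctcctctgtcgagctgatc
PTGES held 1 match, 82 bases before the start, and PTGDS held none. The 250 bases upstream of each of the 10 genes, all of which matched RefSeq by symbol, were searched on both strands for 5 motifs, and no 2 matches overlapped. GCGNGGGCG also occurred in PTGER2, and 8.41% of 35116 promoters hold it. TATAAA, the motif of the TATA box, occurred 32 bases before the start of PTGS2 and, much further away, 208 bases before that of PTGS1. It is in 10.7% of all promoters, and whether either match works as a TATA box was not tested. CACGTG and TCATGTG, the E-box and M-box motifs that TFE3 and its relatives can bind, were in 0 of the 10, against 6.34% and 2.52% of all promoters. TGACGTCA, the cAMP response element, was in 0 of the 10 as well, against 1.65%.

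As a check of the labels, TFE3 stood at 87.58, 83.2 and 81.71 FPKM with Dox plus inhibitor and at 149.12, 153.93 and 145.99 FPKM with Dox alone. It stood at 29.7, 27.41 and 26.27 FPKM with inhibitor alone and at 38.87, 35.81 and 32.73 FPKM with vehicle. Summed over genes, the libraries held 429208 to 473950 FPKM, with the highest sum in replicate 1 of all 4 groups, and the absolute depth is unknown. Most markers listed for the proximal tubule were low, so the identity of the line was not shown by them. Of 10 markers, 7 were below 1 FPKM in all 12 libraries, LRP2 and HNF4A among them, while PAX8 and GGT1 carried the sum of 148 to 158 FPKM with Dox plus inhibitor, 128 to 139 with Dox, 172 to 177 with inhibitor and 122 to 145 with vehicle. All 7 collecting duct markers and all 5 endothelial markers were below 1 FPKM in all 12 libraries. In bulk RNA, fewer cells that express a gene and less RNA per cell cannot be told apart.

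Between 12 libraries, genes were compared as log2(FPKM + 1), a scale on which the change of a low gene comes out too small. One limma model with 4 group means was fitted to the 12649 genes that reached 1 FPKM in at least 3 libraries, and a gene was called at a Benjamini-Hochberg adjusted p under 0.05. Of the 10 genes, 6 passed this filter, each with values of 1 FPKM or more in at least 2 groups. PLA2G4A, PTGS2, PTGER2 and PTGER4 did not. For Dox without inhibitor 3 of the 6 were called, PTGDS and PTGES as higher and HPGD as lower, where 17.9% of all tested genes were called. For Dox with inhibitor 4 were called, PTGDS and PTGS1 as higher and PTGES and HPGD as lower, where the background was 18.2% (2304 genes, and 4548 with the replicate block). For the inhibitor without Dox 4 were called, PTGES as higher and PTGDS, PTGS1 and PTGES3 as lower, beside 38% of all genes. For the inhibitor with Dox 4 were called, all lower (PTGDS, PTGES, PTGS1 and PTGES3), beside 32.1%. For the interaction, which is the Dox difference with inhibitor minus the Dox difference without it, 2 were called (PTGDS and PTGES), beside 2.82%. The 3 libraries of a group did not overlap with those of the other group for 3 of the 6 genes for Dox without inhibitor, beside 39% of all tested genes, and for 4 for Dox with inhibitor, beside 36.9%. They did not overlap for 4 genes for the inhibitor without Dox, beside 43.7%, and for 4 for the inhibitor with Dox, beside 52%. Since the 10 genes were listed with these values known, nothing is read from the counts. The count for Dox with inhibitor was 1 without inhibitor replicate 2 or without Dox plus inhibitor replicate 3. The count for the interaction was 1 without vehicle replicate 2, Dox replicate 2 or Dox replicate 3.

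Over all tested genes, the share of calls that were higher depended on the scaling. For Dox without inhibitor it was 59.2% as deposited, 43.7% with median-ratio scaling and 43.3% with quantile normalization, and in the same order it was 66.7%, 35.6% and 41% for Dox with inhibitor. It was 30.8%, 55.1% and 49.7% for the inhibitor without Dox, and 35.3%, 53.8% and 50.3% for the inhibitor with Dox. The median difference of all tested genes was -0.12 for the inhibitor without Dox as deposited and -0.01 after median-ratio scaling. It was 0.08, 0.04 and -0.08 as deposited for Dox with inhibitor, Dox without inhibitor and the inhibitor with Dox. None of the calls of the 10 genes changed direction under either scaling.

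**Figure D1:**
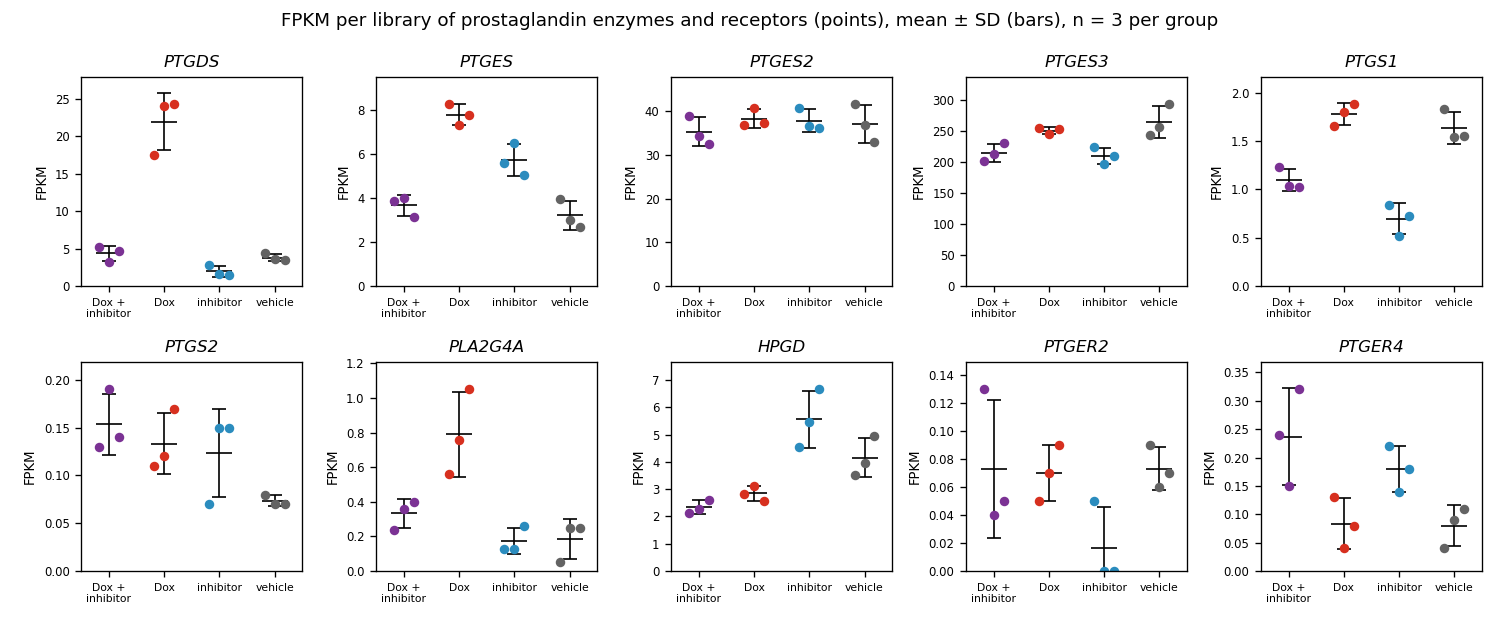
FPKM (vertical axis, linear, from 0, a scale of its own in each panel) of the 10 genes in every library, with bars for the mean ± SD of 3 libraries in each of 4 groups. The Dox libraries of PTGDS (17.49 to 24.21) and PTGES (7.31 to 8.24) lie above all other libraries, and PTGS2, PTGER2 and PTGER4 stay below 0.4 FPKM.

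PLA2G4A encodes the cytosolic phospholipase A2 that frees arachidonic acid (chromosome 1, 186828953 to 186988981, plus strand, GRCh38, GENCODE release 29). It was listed at 0.24, 0.36 and 0.4 FPKM with Dox plus inhibitor and at 0.56, 0.76 and 1.05 FPKM with Dox alone. With inhibitor alone it was at 0.13, 0.13 and 0.26 FPKM, and with vehicle at 0.05, 0.25 and 0.25 FPKM. The Dox libraries did not overlap with any other group, and the other 3 groups overlapped with their neighbours in the order of levels. Only 1 of the 12 libraries reached 1 FPKM, so the gene did not pass the filter. With no filter, the log2 difference was 0.59 ± 0.1 for Dox without inhibitor, where PLA2G4A was called beside 10.9% of all genes, and -0.42 ± 0.1 for the inhibitor with Dox, where it was called beside 20.2%.

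The 2 cyclooxygenases stood at low levels. PTGS1, the form that many tissues make constantly (chromosome 9, 122370530 to 122395703, plus strand), was at 1.23, 1.04 and 1.03 FPKM with Dox plus inhibitor and 1.66, 1.8 and 1.88 FPKM with Dox alone. It was at 0.84, 0.52 and 0.73 FPKM with inhibitor alone and 1.83, 1.54 and 1.55 FPKM with vehicle. The libraries with inhibitor lay below those without it in both pairs of groups, whereas the Dox and vehicle libraries overlapped. The log2 difference was -0.41 ± 0.09 (SE) for the inhibitor with Dox and -0.64 ± 0.09 for the inhibitor without Dox. For Dox it was 0.31 ± 0.09 with inhibitor and 0.08 ± 0.09 without. The call for Dox with inhibitor ended under both scalings (0.28 and 0.21), without replicate 1 of all groups (0.33), and without any one of vehicle 2, Dox 1, 2 or 3, inhibitor 2 or 3 or Dox plus inhibitor 1, 2 or 3 (0.23 to 0.33).

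PTGS2, the inducible cyclooxygenase (chromosome 1, 186671791 to 186680427, minus strand), was far lower than PTGS1 in every group. It was at 0.13, 0.19 and 0.14 FPKM with Dox plus inhibitor and 0.11, 0.12 and 0.17 FPKM with Dox. It was at 0.07, 0.15 and 0.15 FPKM with inhibitor and 0.08, 0.07 and 0.07 FPKM with vehicle. The Dox libraries lay above the vehicle libraries, and neighbours in the order of the 4 groups all overlapped. PACERR, the antisense gene beside PTGS2, was listed at 0 in 10 of the 12 libraries.

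PTGDS encodes lipocalin-type prostaglandin D synthase, a secreted enzyme that makes prostaglandin D2 and also carries lipids (chromosome 9, 136975092 to 136981742, plus strand). It was at 5.2, 3.2 and 4.65 FPKM with Dox plus inhibitor and 17.49, 23.96 and 24.21 FPKM with Dox alone. It was at 2.85, 1.62 and 1.52 FPKM with inhibitor alone and 4.34, 3.59 and 3.41 FPKM with vehicle. The Dox libraries stood apart from all others, the inhibitor libraries were lowest, and the Dox plus inhibitor and vehicle libraries overlapped.

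The log2 difference of PTGDS for Dox was 0.84 ± 0.19 with inhibitor and 2.25 ± 0.19 without inhibitor. As a ratio of mean FPKM these are 2.18 and 5.79. The Dox difference was thus smaller by 1.41 ± 0.27 on the log2 scale when the inhibitor was present. For the inhibitor itself the difference was -2.1 ± 0.19 with Dox and -0.7 ± 0.19 without Dox. The interaction call ended without vehicle 2, Dox 2 or Dox 3 (-1.38, -1.34 and -1.33) and with a pseudocount of 0.1 (-1.38). The call for Dox with inhibitor ended without inhibitor 2 (0.76) or Dox plus inhibitor 3 (0.8). The call for the inhibitor without Dox ended without inhibitor 2 (-0.61) or 3 (-0.58) and after quantile normalization (-0.6). GENCODE places a second protein-coding gene model, AL807752.7, on the same strand over PTGDS, so the split of reads between them is uncertain. TFE3 itself was lower with Dox plus inhibitor (81.71 to 87.58 FPKM) than with Dox alone (145.99 to 153.93 FPKM). The part of this difference in the interactions of PTGDS and PTGES was not tested.

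Some markers of other cell types also differed between the groups, and not all in the same direction. The leukocyte and platelet list of 8 genes summed to 30.8 to 34.6 FPKM with Dox plus inhibitor, 53.8 to 59.6 with Dox, 26.2 to 31.9 with inhibitor and 35.2 to 43.2 with vehicle. CD68, a lysosomal membrane protein, accounted for nearly all of that sum, and the other 7 genes were below 1 FPKM in all 12 libraries, with PF4 and PPBP at 0 and PTPRC at 0.02 or less. The fibroblast and smooth muscle list of 6 genes summed to 10.6 to 11.2, 7.47 to 8.14, 7.4 to 7.79 and 1.87 to 3.29 FPKM in the same order of groups. In it LUM was at 2.06 to 3.36, 7.07 to 7.89, 1.3 to 3.05 and 1.32 to 2.73 FPKM and ACTA2 at 7.41 to 8.4, 0.14 to 0.4, 4.61 to 6.02 and 0.43 to 0.47 FPKM. PDGFRA and PDGFRB did not exceed 0.04 FPKM and DCN did not exceed 0.05 FPKM. The part of LUM-expressing or ACTA2-expressing cells in the results was not tested.

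PTGES encodes the microsomal prostaglandin E synthase, the inducible enzyme of prostaglandin E2 production (chromosome 9, 129738331 to 129753047, minus strand). It was at 3.86, 4.01 and 3.12 FPKM with Dox plus inhibitor and 8.24, 7.31 and 7.78 FPKM with Dox alone. It was at 5.6, 6.47 and 5.04 FPKM with inhibitor alone and 3.94, 3.01 and 2.67 FPKM with vehicle. Either agent alone went with higher levels than vehicle, while the libraries with both agents overlapped those with vehicle.

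The log2 difference of PTGES for Dox was -0.52 ± 0.12 with inhibitor and 1.07 ± 0.12 without inhibitor. For the inhibitor it was -0.92 ± 0.12 with Dox and 0.68 ± 0.12 without Dox. Both agents thus stood on opposite sides of 0 depending on the presence of the other, and the interaction was -1.59 ± 0.17. The interaction ran from -1.89 to -1.5 over the 19 alternative settings. The call for Dox with inhibitor ended without inhibitor 2 or without Dox plus inhibitor 3, at -0.44 in each case.

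The other 2 genes named as prostaglandin E synthases were much more abundant and varied less. PTGES2, a membrane-bound enzyme (chromosome 9, 128120693 to 128128462, minus strand), averaged 35.2 ± 3.32 FPKM (SD, n = 3) with Dox plus inhibitor, 38.3 ± 2.21 with Dox, 37.8 ± 2.59 with inhibitor and 37.1 ± 4.33 with vehicle. Its libraries overlapped in all 4 comparisons, and its log2 differences ran from -0.12 to 0.05 with an SE of 0.09. For the inhibitor with Dox it was -0.22 without replicate 1 of all groups, where PTGES2 was called. The antisense gene PTGES2-AS1 did not exceed 0.48 FPKM, and whether strand was used in counting is not given in the sources used here.

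PTGES3 encodes a co-chaperone of HSP90, also known as p23, for which a cytosolic prostaglandin E synthase activity was described (chromosome 12, 56663341 to 56688408, minus strand). It was at 202.11, 212.86 and 230.28 FPKM with Dox plus inhibitor and 255.24, 244.59 and 252.71 FPKM with Dox. It was at 223.62, 196.73 and 209.25 FPKM with inhibitor and 243.56, 256.71 and 293 FPKM with vehicle. All libraries with inhibitor lay below all libraries without it. The log2 difference was -0.22 ± 0.08 for the inhibitor with Dox and -0.33 ± 0.08 for the inhibitor without Dox, beside a median of all tested genes of -0.08 and -0.12. Both calls ended after median-ratio scaling (-0.14 and -0.21). The first also ended with no filter on low values (-0.22), without replicate 1 of all groups (-0.17), and without any one of vehicle 2, Dox 1, 2 or 3, inhibitor 3 or Dox plus inhibitor 1 or 2 (-0.24 to -0.18). GENCODE lists 5 pseudogenes of PTGES3, with which reads may have been shared.

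**Figure D2:**
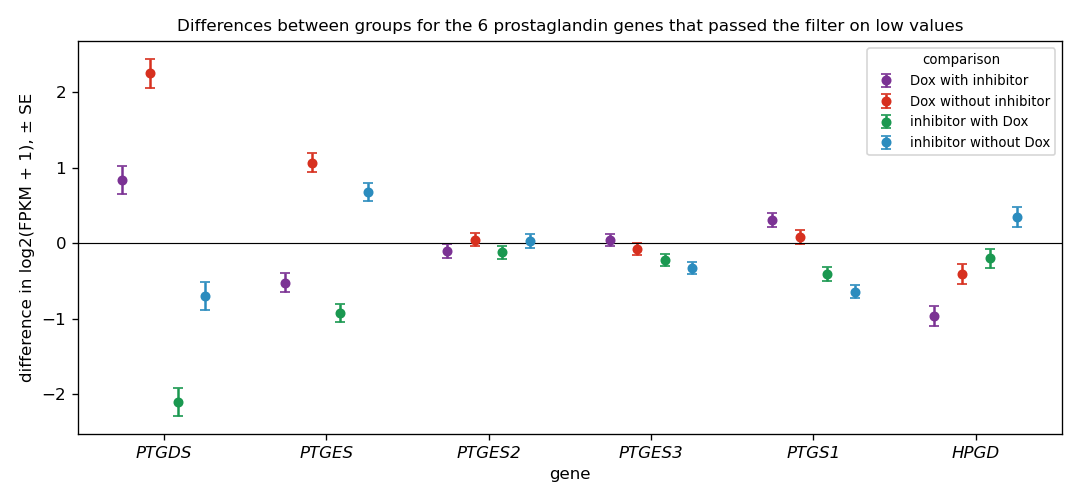
Difference in log2(FPKM + 1) between groups (vertical axis, points, with bars for the SE from the limma model) for the 6 genes that passed the filter on low values, in 4 comparisons. PTGDS spans -2.1 to 2.25 and PTGES -0.92 to 1.07, whereas PTGES2 lies between -0.12 and 0.05.

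HPGD encodes the dehydrogenase that inactivates prostaglandin E2 and related products (chromosome 4, 174490177 to 174523154, minus strand). It was at 2.13, 2.29 and 2.62 FPKM with Dox plus inhibitor and 2.83, 3.12 and 2.57 FPKM with Dox. It was at 4.55, 5.47 and 6.65 FPKM with inhibitor and 3.53, 3.97 and 4.93 FPKM with vehicle. All libraries with Dox lay below all libraries without it, and the libraries with and without inhibitor overlapped on either side.

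The log2 difference of HPGD for Dox was -0.96 ± 0.13 with inhibitor and -0.41 ± 0.13 without inhibitor. For the inhibitor it was -0.2 ± 0.13 with Dox and 0.35 ± 0.13 without Dox, and neither was called. The second was called under both scalings (0.45 in each), with the replicate block (0.35), without replicate 1 of all groups (0.37), and without vehicle 3 (0.45) or inhibitor 1 (0.46). The call for Dox without inhibitor ended with no filter on low values (-0.41) and without any one of vehicle 2 or 3, Dox 1, 2 or 3, inhibitor 2 or Dox plus inhibitor 1, 2 or 3 (-0.47 to -0.31).

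The receptors PTGER2 and PTGER4, known as EP2 and EP4, bind prostaglandin E2 and raise cAMP. PTGER2 (chromosome 14, 52314305 to 52328606, plus strand) was at 0.13, 0.04 and 0.05 FPKM with Dox plus inhibitor and 0.05, 0.07 and 0.09 FPKM with Dox. It was at 0.05 FPKM in 1 library with inhibitor and listed at 0 in the other two, and at 0.09, 0.06 and 0.07 FPKM with vehicle. PTGER4 (chromosome 5, 40679498 to 40693735, plus strand) was at 0.24, 0.15 and 0.32 FPKM with Dox plus inhibitor and 0.13, 0.04 and 0.08 FPKM with Dox. It was at 0.22, 0.14 and 0.18 FPKM with inhibitor and 0.04, 0.09 and 0.11 FPKM with vehicle. The PTGER4 libraries with inhibitor lay above those without it, at levels where neither gene passed the filter. With no filter, PTGER4 was called for the inhibitor with Dox (0.19 ± 0.05), beside 20.2% of all genes. PTGER4 overlaps TTC33 on the opposite strand.

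The rest of the pathway was read from 6 lists of other genes, drawn up by known role, though with earlier results of these data known. Of 65 such genes, 33 were tested. For Dox with inhibitor 12 were called, 5 higher and 7 lower (36.4%, beside 18.2% of all tested genes). With the replicate block 14 of the 33 were called for it, 7 higher and 7 lower, beside 4548 of all 12649 tested genes. For Dox without inhibitor 13 were called, 6 higher and 7 lower (39.4%, beside 17.9%). For the inhibitor with Dox 17 were called, 7 higher and 10 lower (51.5%, beside 32.1%), and for the inhibitor without Dox 19, 7 higher and 12 lower (57.6%, beside 38%). For the interaction 1 was called (3.03%, beside 2.82%), the cAMP-induced kinase gene SIK1. The count for Dox without inhibitor was 8, 7, 5, 8 and 6 without vehicle 1, vehicle 2, Dox 1, Dox 2 and Dox 3. The count for Dox with inhibitor was 7 and 6 without Dox plus inhibitor 2 and 3. The SIK1 interaction call ended without vehicle 2, Dox 2, Dox 3, inhibitor 2 or Dox plus inhibitor 3.

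SLCO2A1, the gene of the prostaglandin transporter (chromosome 3, 133928145 to 134052184, minus strand), changed in all 4 comparisons. It was at 18.02, 17.62 and 16.36 FPKM with Dox plus inhibitor and 9.02, 9.02 and 9 FPKM with Dox. It was at 36.52, 36.26 and 34.04 FPKM with inhibitor and 24.49, 21.88 and 19.54 FPKM with vehicle. No 2 neighbouring groups overlapped in the order inhibitor, vehicle, Dox plus inhibitor and Dox. For Dox it fell by 1 ± 0.07 on the log2 scale with inhibitor (limma adjusted p = 1.5e-05) and by 1.19 ± 0.07 without inhibitor (adjusted p = 1.7e-06). For the inhibitor it rose by 0.87 ± 0.07 with Dox (adjusted p = 6.7e-06) and by 0.68 ± 0.07 without Dox (adjusted p = 4e-05). These 4 calls held in all 19 alternative settings, and the interaction was 0.19 ± 0.1 (adjusted p = 0.47).

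The other genes of transport and breakdown moved less. The efflux pump gene ABCC4, whose product exports prostaglandins among other substrates, rose by 0.31 with inhibitor in the presence of Dox (adjusted p = 0.0045). It was also called for Dox without inhibitor (-0.27, adjusted p = 0.015), a call that ended without vehicle 2 (-0.25) or Dox 1 (-0.26). PTGR1, a reductase that acts after HPGD, fell with the inhibitor by 0.25 with Dox and by 0.31 without Dox (adjusted p = 0.005 and 0.0012). PTGR2, a second such reductase, fell by 0.39 with the inhibitor without Dox (adjusted p = 0.0053). ZADH2 was at -0.34 for the inhibitor without Dox (adjusted p = 0.0098), a call that ended without replicate 1 of all groups. PTGR2 was also at 0.39 and 0.29 for Dox with and without inhibitor and at -0.3 for the inhibitor with Dox, calls that ended in 2, 14 and 5 of 18 alternative settings.

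**Figure D3:**
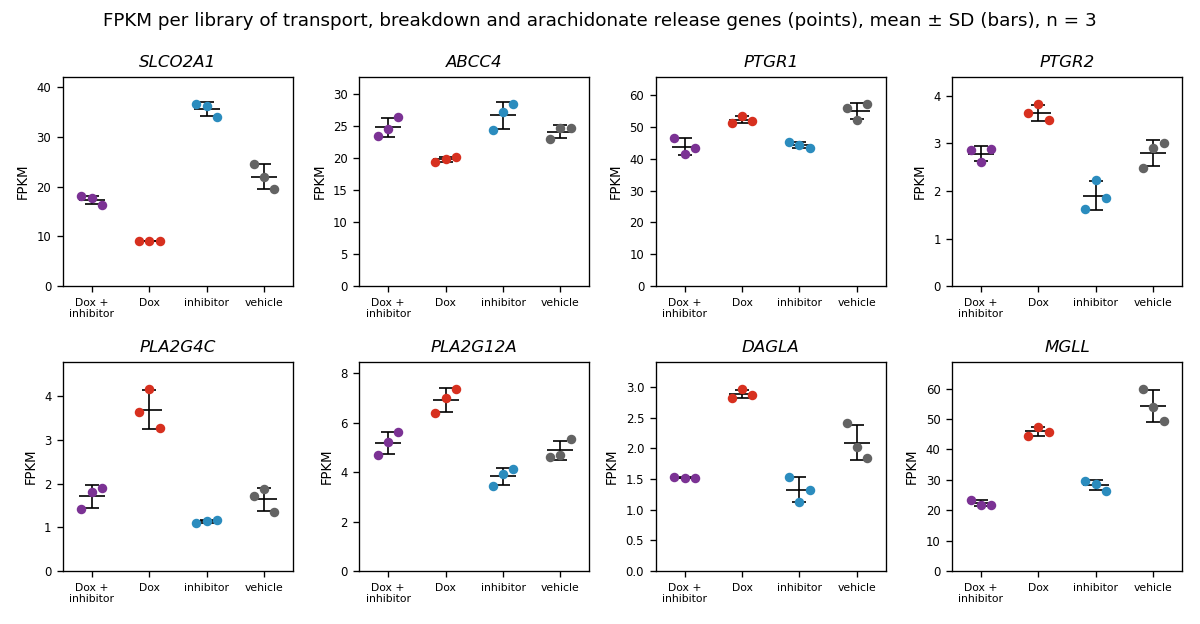
FPKM (vertical axis, linear, from 0, a scale of its own in each panel) of 8 other genes of prostaglandin transport, breakdown and arachidonate release in every library, with bars for the mean ± SD of 3 libraries in each of 4 groups. SLCO2A1 falls into 4 separate groups, from 9 FPKM with Dox to 36.52 FPKM with inhibitor.

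Among the genes that release arachidonic acid or its precursors, 8 were tested. With the inhibitor in the presence of Dox 6 fell and 0 rose (75% called, beside 32.1% of all tested genes, with a median of -0.4 beside -0.08). Without Dox 6 were called as lower and 0 as higher (75%, beside 38%, with a median of -0.36 beside -0.12), and 3 of these calls ended in alternative settings. MGLL, which encodes the monoacylglycerol lipase that yields arachidonic acid from an endocannabinoid, was the most abundant. It averaged 22.3 ± 0.904 FPKM with Dox plus inhibitor against 45.9 ± 1.4 with Dox, and 28.2 ± 1.64 FPKM with inhibitor against 54.3 ± 5.24 with vehicle (SD over 3 libraries). MGLL fell by 1.01 ± 0.07 for the inhibitor with Dox (adjusted p = 1.7e-06) and by 0.92 ± 0.07 without Dox (adjusted p = 3.1e-06). DAGLA and DAGLB, which encode the diacylglycerol lipases that make the substrate of MGLL, fell with the inhibitor by 0.62 and 0.42 with Dox (adjusted p = 0.00029 and 0.0025) and by 0.41 and 0.44 without Dox (adjusted p = 0.0035 and 0.0017). PLA2G15, the lysosomal phospholipase, fell by 0.37 with the inhibitor in the presence of Dox (adjusted p = 0.0075).

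With Dox, genes of this list were called in both directions. Of the 8 tested, 3 were called as higher and 1 as lower with inhibitor (50%, beside 18.2%, with a median of 0.19 beside 0.08). Without inhibitor 4 were called as higher and 1 as lower (62.5%, beside 17.9%, with a median of 0.27 beside 0.04). PLA2G4C, a membrane-anchored relative of PLA2G4A, averaged 3.69 ± 0.447 FPKM with Dox against 1.65 ± 0.261 FPKM with vehicle (SD over 3 libraries). It rose by 0.83 ± 0.1 (adjusted p = 0.00025), and it fell by 0.79 ± 0.1 for the inhibitor with Dox (adjusted p = 0.00018). PLA2G12A, a secreted phospholipase, rose by 0.43 with Dox without inhibitor (adjusted p = 0.005) and fell by 0.36 with the inhibitor in the presence of Dox (adjusted p = 0.008). MGLL was lower with Dox plus inhibitor than with inhibitor alone (-0.33, adjusted p = 0.011). Further calls ended in at least 2 alternative settings. They were PLA2G15 (0.32), DAGLA (0.33) and MGLL (-0.23) for Dox without inhibitor, PLA2G4B (0.81), PLA2G4C (0.34) and PLA2G12A (0.36) for Dox with inhibitor, and the same 3 genes for the inhibitor without Dox (-0.7, -0.3 and -0.29). PLA2G4B rests on 1 library with inhibitor at 0.06 FPKM, without which its difference for Dox was 0.47 and that for the inhibitor -0.37.

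Among the other prostanoid synthases, AKR1B1, an aldose reductase with prostaglandin F synthase activity, was the most abundant. It averaged 577 ± 8.99 FPKM with Dox plus inhibitor, 547 ± 26.3 with Dox, 835 ± 75.2 with inhibitor and 758 ± 110 with vehicle (SD over 3 libraries). It fell with Dox by 0.53 ± 0.09 with inhibitor and by 0.46 ± 0.09 without inhibitor (adjusted p = 0.004 and 0.0061). FAM213B, which encodes a prostamide and prostaglandin F synthase, rose by 0.46 with the inhibitor without Dox (adjusted p = 0.00055). It was also at -0.28 for Dox with inhibitor (adjusted p = 0.024), a call that ended without inhibitor 1 or 2 or Dox plus inhibitor 2 or 3. CBR3 was at -0.6 for Dox without inhibitor (adjusted p = 0.024) and at 0.47 for the inhibitor with Dox (adjusted p = 0.042), calls that ended in 4 and 9 of 18 alternative settings. The prostacyclin synthase gene PTGIS did not exceed 0.05 FPKM, and HPGDS, the haematopoietic prostaglandin D synthase, did not exceed 0.04 FPKM. Of the 7 other prostanoid receptors 3 were tested (PTGER1, PTGFR and TBXA2R, at 0.6 to 2.25 FPKM) and limma called 0 in any of the 5 comparisons. At an unadjusted p under 0.05 there was 1 for Dox without inhibitor, 1 for the inhibitor without Dox and 1 for the interaction, and 0 in the other two. The smallest of their adjusted p was 0.063, for PTGER1 with Dox without inhibitor (-0.46 ± 0.15), where its libraries did not overlap.

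For the 3 genes with the widest range of group means, the genes with the most similar profile were found by the root mean square difference of log2(FPKM + 1), centred on each gene's mean, over the 12 libraries. All profiles come from the same libraries, and the measure is a description. PTGDS, whose own values had a root mean square of 1.12 about their mean, was closest to RRAGD, a Rag GTPase gene (0.234), RENBP, which encodes the renin-binding protein (0.259), and UAP1L1 (0.273). PTGES, with a root mean square of 0.445, was closest to TM4SF19 (0.174), the autophagy receptor gene SQSTM1 (0.189) and BIRC7, a relative of apoptosis inhibitors (0.219). SQSTM1 averaged 158.06 FPKM with Dox plus inhibitor, 290.45 with Dox, 189.48 with inhibitor and 156.04 with vehicle. HPGD, with 0.397, was closest to ARHGAP22 (0.199), the ETS factor gene ELK3 (0.212) and the adaptor gene SH2B3 (0.221). Of these 9 genes 7 matched a RefSeq promoter. RRAGD and UAP1L1 did not, so among the neighbours of PTGDS only RENBP was searched. In the 250 bases upstream BIRC7 held 1 match to CACGTG and TM4SF19 held 1 match to TCATGTG.

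**Figure D4:**
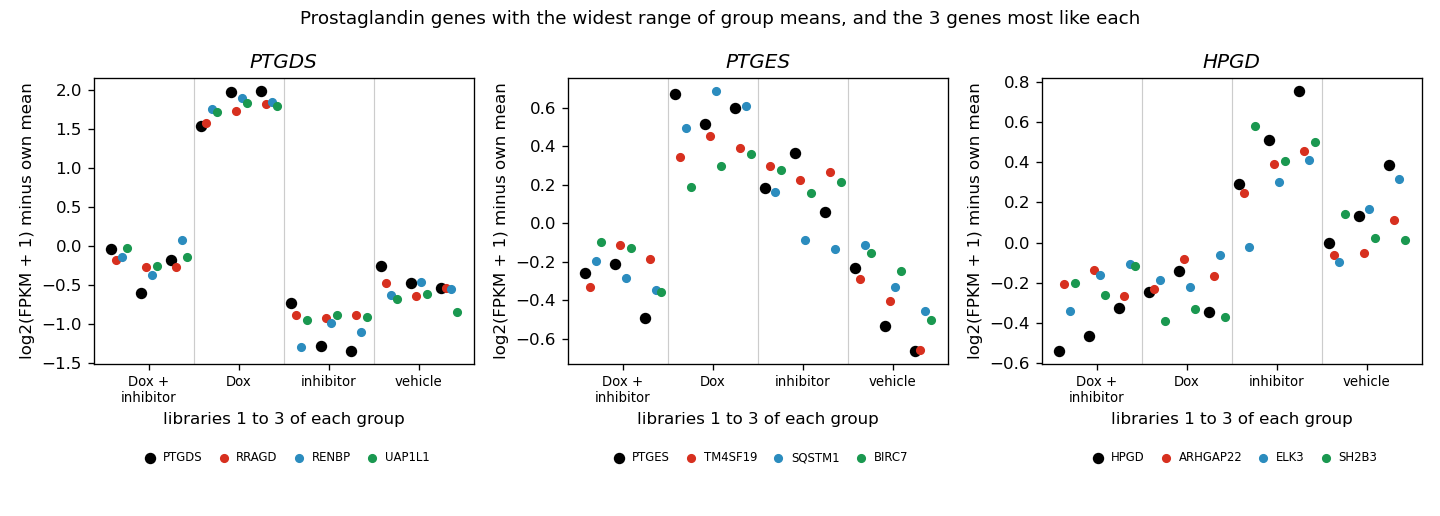
Values of log2(FPKM + 1) minus each gene's own mean (vertical axis) in the 12 libraries, by group (horizontal axis), for PTGDS, PTGES and HPGD (black) and the 3 genes most like each (colours). PTGDS and its 3 neighbours are all highest with Dox alone, and PTGES lies above its mean with either agent alone.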

How the data were processed

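Poly(A) RNA of 12 HK-2 libraries in 4 groups of 3 was prepared with a stranded TruSeq kit, per the labels' protocols. The authors deposited 1 table of FPKM per gene symbol, with values to 2 decimals. Salmon 1.9.0, Trim Galore 0.6.7, hg38 and GRCh38.p13 are named in the submitters' processing notes, and neither the annotation nor how FPKM was computed is given in the sources used here. Columns were matched to samples by name. Log2(FPKM + 1) was fitted with limma 3.58.1 in R 4.3.3 (4 group means, 8 residual degrees of freedom, intensity trend) for genes with an FPKM of at least 1 in at least 3 libraries, and p-values were adjusted over all 12649 tested genes. The method was tested on simulated data. Values after ± are SE for log2 differences and SD for FPKM. The labels number the replicates of each group. Deviations of same-numbered libraries correlated over 0.1 in all 3 pairs for Dox plus inhibitor with inhibitor (0.133 to 0.549). On the data alone, pairing by number was therefore added as an alternative fit with a replicate block. Differently numbered pairs of these groups reached 0.154, and same-numbered pairs of vehicle with inhibitor were at 0.686, 0.097 and 0.505. The differences, SE, adjusted p and calls given for Dox with inhibitor come from the fit without the block. Its blocked counts of all tested genes and of other pathway genes are given beside them. No call of the 10 genes or of the pathway lists ended with the block. Alternatives were a pseudocount of 0.1, no filter, a mean FPKM of at least 5, median-ratio and quantile scaling, a replicate block, leaving out each library and, added after seeing the data, leaving out replicate 1 of all groups. Named genes were the 10 listed genes, called genes of 6 pathway lists and the 3 most similar genes of 3 listed genes. The listed genes and the pathway lists were chosen with earlier results of these data known.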

Additional observations from a re-analysis of the deposited data

Results flagged for a closer look

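The interaction term of the limma model tests whether the Dox difference depends on the inhibitor. Of the 6 tested listed genes and 33 tested pathway genes, it passed the threshold for 3. Of all 12649 tested genes it passed for 357 (2.82%). For PTGES the Dox difference with inhibitor minus that without it was -1.59 on the log2 scale, with a Dox difference of -0.52 with inhibitor and 1.07 without inhibitor. For PTGDS it was -1.41, with a Dox difference of 0.84 with inhibitor and 2.25 without inhibitor. PTGES and PTGDS were listed with these values known, so the term is a description for them, and for PTGDS it lost the call in 4 of 19 alternative settings. For SIK1, a kinase gene induced by cAMP, it was -0.38 (adjusted p = 0.019), with a Dox difference of -0.47 with inhibitor and -0.09 without inhibitor, and the call ended in 5 of 19 alternative settings. All 3 Dox libraries with inhibitor lay below the 3 libraries with inhibitor alone for SIK1, and the Dox and vehicle libraries overlapped.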

How the results depend on the processing

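Among the tested genes of the 10 and of the pathway lists, no called difference changed sign in the alternative settings, of which there were 19, or 18 for genes with a mean under 5 FPKM. The replicate block gave 3741, 4548 and 666 called genes for Dox without inhibitor, Dox with inhibitor and the interaction, against 2269, 2304 and 357 without it. For the inhibitor without and with Dox the block gave 6167 and 5239, against 4802 and 4063. Over all libraries of the other groups, 8 of 12 libraries correlated best with 1 of their own number. A mean FPKM of at least 5, which tests fewer genes, called 2 of 4 listed genes for Dox with inhibitor, beside 1886 of all 8798 tested genes. Of 16 other pathway genes it called 8 for Dox without inhibitor, 12 for the inhibitor without Dox and 10 for the inhibitor with Dox. Of all 8798 tested genes it called 1735, 3684 and 3039 in the same order. A pseudocount of 0.1 gave 1 of 6 listed genes for the interaction, beside 322 of all 12649 tested genes. No filter gave 2 of 59 other pathway genes for the interaction, beside 369 of 20394 genes. Leaving out replicate 1 of all groups gave 2 of 33, beside 489 of 12649. Leaving out 1 library at a time gave 1427 to 2665 called genes for Dox without inhibitor (at most 1492 without vehicle 2 or Dox 3), 1121 to 2920 for Dox with inhibitor (at most 1352 without inhibitor 2 or Dox plus inhibitor 2 or 3) and 186 to 420 for the interaction (at most 237 without vehicle 2, Dox 2 or 3, inhibitor 2 or Dox plus inhibitor 2 or 3). In these settings 1 to 4 listed genes were called for Dox with inhibitor and 1 to 2 for the interaction. Other pathway genes called numbered 5 to 15 for Dox without inhibitor, 6 to 13 for Dox with inhibitor and 0 to 2 for the interaction.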

Other observations

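The leukotriene branch and genes of cAMP synthesis and response were measured as well. LTA4H, which encodes leukotriene A4 hydrolase, averaged 43.3 ± 1.31 FPKM with Dox plus inhibitor, 40.4 ± 1.01 with Dox, 32.7 ± 1.43 with inhibitor and 28.3 ± 1.4 with vehicle (SD over 3 libraries). It rose with Dox by 0.4 ± 0.05 with inhibitor and by 0.5 ± 0.05 without inhibitor (adjusted p = 0.00075 and 7.4e-05). The 5-lipoxygenase gene ALOX5 did not exceed 0.86 FPKM and the leukotriene C4 synthase gene LTC4S did not exceed 0.4 FPKM. The leukotriene B4 receptor gene LTB4R was at 0.35 for the inhibitor with Dox (adjusted p = 0.015) and lost this call without Dox 3 (0.33) or Dox plus inhibitor 3 (0.32).

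The cAMP list held genes that respond to cAMP and also the adenylyl cyclase genes ADCY3, ADCY6, ADCY7 and ADCY9, whose products make cAMP. Of its 9 tested genes, 3 were called as higher and 2 as lower for the inhibitor with Dox (55.6%, beside 32.1% of all tested genes). Without Dox 4 were called as higher and 3 as lower (77.8%, beside 38%). The 3 higher were SIK1, DUSP1 and ADCY3, with ADCY6 added without Dox. The 2 lower were CREM and ADCY9, with ADCY7 added without Dox. For Dox, SIK1, DUSP1 and ADCY3 were called as lower with inhibitor (33.3%, beside 18.2%). DUSP1 and PER1 were called as lower without inhibitor (22.2%, beside 17.9%). The calls of ADCY6, ADCY7 and PER1, of DUSP1 for Dox, and of ADCY3 for the inhibitor with Dox ended in at least 4 alternative settings. SIK1 averaged 34.3 ± 0.844 FPKM with Dox plus inhibitor, 27.8 ± 0.792 with Dox, 48 ± 2.15 with inhibitor and 29.7 ± 1.33 with vehicle. It rose with the inhibitor by 0.29 ± 0.05 with Dox and by 0.68 ± 0.05 without Dox (adjusted p = 0.0014 and 3e-06). The adenylyl cyclase gene ADCY9 fell by 0.55 and 0.62 in the same 2 comparisons (adjusted p = 0.00012 and 4e-05), and CREM, a cAMP-responsive modulator gene, by 0.4 and 0.48 (adjusted p = 0.005 and 0.0014).

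PTGES3L, a paralog of PTGES3 outside the lists, was at 1.57 to 2.57 FPKM with Dox plus inhibitor, 0.73 to 0.87 with Dox, 2.38 to 2.83 with inhibitor and 1.09 to 1.24 with vehicle. It rose with the inhibitor by 0.77 with Dox and 0.71 without Dox, given as a description. It was chosen after its values were seen, and it shares sequence with the read-through gene PTGES3L-AARSD1.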
